A study of Mus musculus with 4 samples.

Results

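Axin2, Lef1, Tcf7, Nkd1, Nkd2 and Sp5, 6 genes that answer canonical Wnt signalling, were followed through the growth of the mouse lower first molar. They were taken as every probe whose gene name on the array is 1 of these 6 symbols, which gave 10 probes, 9 of them measured, and 6 genes of 17415 measured in all. Lef1, Sp5 and Nkd1 were highest at E14, by up to 5.35-fold for Sp5. E14 alone carried the other dye, so for each of them a dye effect cannot be told apart from this peak. With median centring of the arrays Lef1 at E12 and Nkd1 at E12 and E16 came out above E14. It also left Lef1 at only -0.18 and -0.11 log2 units at E11 and E16, and Nkd1 at -0.02 and -0.01 at E11 and E18. Tcf7 rose through the days, to a level at E18 that was 7.51-fold that of E11 on its brighter probe and 3.24-fold on its dimmer one, a slope that did not pass once the array slide entered the fit. Axin2, the textbook reporter of the pathway, spanned 1.43-fold from its highest to its lowest stage, or 0.52 log2 units. Its span was 0.95 log2 units with the scanner's own ratios and 1.003 with median centring. Nkd2 stood above E14 at E11, 1.63-fold on its brighter probe and 1.17-fold on its dimmer one, and near E14 at the other stages. With median centring, however, Nkd2 read 0.98, 0.68 and 0.41 log2 units above E14 at E12, E16 and E18.

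In the canonical Wnt pathway a secreted Wnt ligand binds Frizzled and Lrp receptors, which stops the destruction complex from marking beta-catenin for breakdown. Beta-catenin then enters the nucleus and turns on genes together with DNA-binding factors of the TCF and LEF family, to which Lef1 and Tcf7 belong. Several of the genes it turns on, Axin2, Nkd1 and Nkd2 among them, act back on the pathway as inhibitors. In the tooth the pathway is used again and again, in the dental epithelium, in the signalling centre known as the enamel knot and in the dental mesenchyme, and molars of mice without Lef1 stop developing early.

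RNA came from whole first molar germs of the lower jaw of C57BL/6 mouse embryos, pooled by stage, at embryonic day (E) 11, 12, 14, 16 and 18. On each of 4 two-colour Agilent arrays the RNA of 1 stage, E11, E12, E16 or E18, was labelled with Cy5 and hybridised with E14 RNA labelled with Cy3. No treatment, mutation or transgene is named in the labels, the labels do not state how many germs made a pool, and no array had the dyes swapped. A stage other than E14 was thus measured on 1 array, without a replicate, and all 4 comparisons share E14 as the reference.

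By the scanner software's own flag, 52.5% to 59.0% of 41174 probes stood well above background in the Cy5 channel and 54.3% to 57.0% in the Cy3 channel, and no spot was saturated. Values are log2 ratios of the named stage over E14, so that a positive value is a higher level in the named stage. Each E14 level was read 4 times, and the SD of a gene's 4 E14 readings had a median of 0.05 log2 units and a 95th percentile of 0.12. All E14 channels carry the same label, and if they were 1 pool this SD holds the error of labelling and hybridisation only, not the spread between pools of germs. It is called technical here. Levels of a gene at neighbouring places in its order of stages were called apart here where they differed by more than 2 SDs of a difference between 2 single readings, taking the gene's own E14 SD or the median SD, whichever was larger, which came to 0.14 to 0.18 log2 units. A step between 2 stages other than E14 is a difference of 2 ratios and holds 4 readings. For such a step this limit is narrow, and steps just past it are not secure. Since E14 always carried Cy3, a difference between E14 and all other stages cannot be told apart from a dye effect of the probe, whereas differences among E11, E12, E16 and E18 all compare Cy5 with Cy5. Markers of dental and oral epithelium and of dental and jaw mesenchyme, the layers of a tooth germ, were all well above background in Cy5 at every stage (7 of 7 and 8 of 8).

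The stretch of 250 bases before the transcription start was read for the words CTTTGA and CTTTGT, the core that TCF and LEF proteins bind, on both strands, with overlapping matches counted. RefSeq promoter sequences (GRCm38.p6) held all 6 genes, in 10 windows, since Lef1 and Tcf7 have more than 1 annotated start. Sp5 and 1 window of Lef1 held matches, and the other 8 windows held none. The 4 sequences below show Sp5, which was farthest below E14, both kinds of Lef1 window, and Axin2 for comparison. Matches are in capitals and each sequence is written 5′ to 3′ on the strand of its gene.
Sp5, chr2:70474673-70474922, plus strand: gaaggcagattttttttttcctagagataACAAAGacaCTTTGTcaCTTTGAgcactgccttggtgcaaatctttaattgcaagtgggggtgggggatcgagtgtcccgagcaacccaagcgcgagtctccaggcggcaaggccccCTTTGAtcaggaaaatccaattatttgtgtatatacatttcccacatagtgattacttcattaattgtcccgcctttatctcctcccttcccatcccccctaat
Lef1, inner start, chr3:131156044-131156293, plus strand: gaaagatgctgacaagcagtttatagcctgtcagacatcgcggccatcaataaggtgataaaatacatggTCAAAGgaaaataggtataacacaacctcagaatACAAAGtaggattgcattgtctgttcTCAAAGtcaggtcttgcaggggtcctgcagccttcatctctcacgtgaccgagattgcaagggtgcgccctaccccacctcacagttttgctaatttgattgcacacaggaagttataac
Lef1, first start, chr3:131110047-131110296, plus strand: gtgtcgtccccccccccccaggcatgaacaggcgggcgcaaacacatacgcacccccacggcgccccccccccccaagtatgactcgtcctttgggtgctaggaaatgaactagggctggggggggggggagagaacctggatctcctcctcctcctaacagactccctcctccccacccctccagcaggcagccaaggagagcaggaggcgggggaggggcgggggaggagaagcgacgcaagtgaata
Axin2, chr11:108920099-108920348, plus strand: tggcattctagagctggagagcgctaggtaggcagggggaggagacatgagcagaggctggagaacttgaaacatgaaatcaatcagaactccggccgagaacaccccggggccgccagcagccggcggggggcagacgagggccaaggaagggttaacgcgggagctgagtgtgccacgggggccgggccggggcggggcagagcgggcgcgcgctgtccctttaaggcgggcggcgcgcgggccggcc

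Sp5 held 4 matches, beginning 221, 212, 204 and 104 bases before the start, and 0.0944% of 32851 promoter windows of the same length held 4 or more. The inner Lef1 window, which lies inside the gene, held 3 matches at 180, 146 and 120 bases, a number that 0.776% of all windows reached. At least 1 match was present in 27.6% of all windows. These shares are over all windows and not over windows of like base content. G and C made up 46.0% of the Sp5 window and 44.8% of the inner Lef1 window. In the windows of the 6 genes without a match they made up 50.8% to 76.0%. The first Lef1 start and Axin2 held none of these letters in this window. A match is a short word in the sequence, and binding was not measured in these data.

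Lef1, one of the factors that carry beta-catenin to DNA, was highest at E14 and lower at each other stage. With median centring in place of loess, however, Lef1 read 0.62 above E14 at E12, and only -0.18 at E11 and -0.11 at E16. Its brightest probe (transcript AK083328, mm7 chr3:131060609-131060668, plus strand) read log2 ratios of -1.25 at E11 and -0.64 at E12, then -1.09 at E16 and -1.81 at E18, with an E14 SD of 0.02 (n = 4 readings). Lef1 was thus 2.37-fold lower than E14 at E11 and 1.56-fold lower at E12, and again 2.12-fold lower at E16 and 3.50-fold lower at E18. From the highest to the lowest, its stages ran E14, E12, E16, E11 and E18. Each neighbour in that order differed beyond the technical limit, E16 and E11 by 0.16, just past the limit of 0.14.

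A second Lef1 probe (transcript NM_010703), which the file places across mm7 chr3:131041424-131059585, 18162 bases and so more than a probe's length, read -1.29, -0.82, -1.25 and -1.75 in the same stage order, with an E14 SD of 0.05. Both probes had E14 on top and E18 at the bottom and differed from each other by 0.04 to 0.18 log2 units. On the second probe E11 and E16 lay closer together than on the brighter one, so the order of these stages rests on the brighter probe. The third Lef1 probe (AK042137, mm7 chr3:130953629-130953688), at the far upstream side of the others, was not well above background in either channel on any array and gives no level. Its Cy5 signal was 33.9 to 41.5 scanner units beside 428 to 1658 for the second probe.

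Sp5, a zinc-finger transcription factor of the Sp family and a direct target of beta-catenin in many embryonic tissues, was also highest at E14, and lay farther below it at E11, E12 and E18 than Lef1 did. Its only probe (NM_022435, no position in the file) read -2.36 at E11 and -1.55 at E12, then -1.17 at E16 and -2.42 at E18, with an E14 SD of 0.06. Against E14, Sp5 was 5.14-fold lower at E11 and 2.92-fold lower at E12, then 2.25-fold lower at E16 and 5.35-fold lower at E18. E14 stood highest, followed by E16 and E12, and E11 and E18 shared the bottom, 0.06 log2 units apart, within the technical limit. Unlike Lef1, which differed by -0.45 log2 units from E12 to E16, Sp5 was 0.37 higher at E16 than at E12. Of all measured genes, 36 were lower than Sp5 at E18 and 85 at E11, and 113 were lower than Lef1 at E18.

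**Figure D1:**
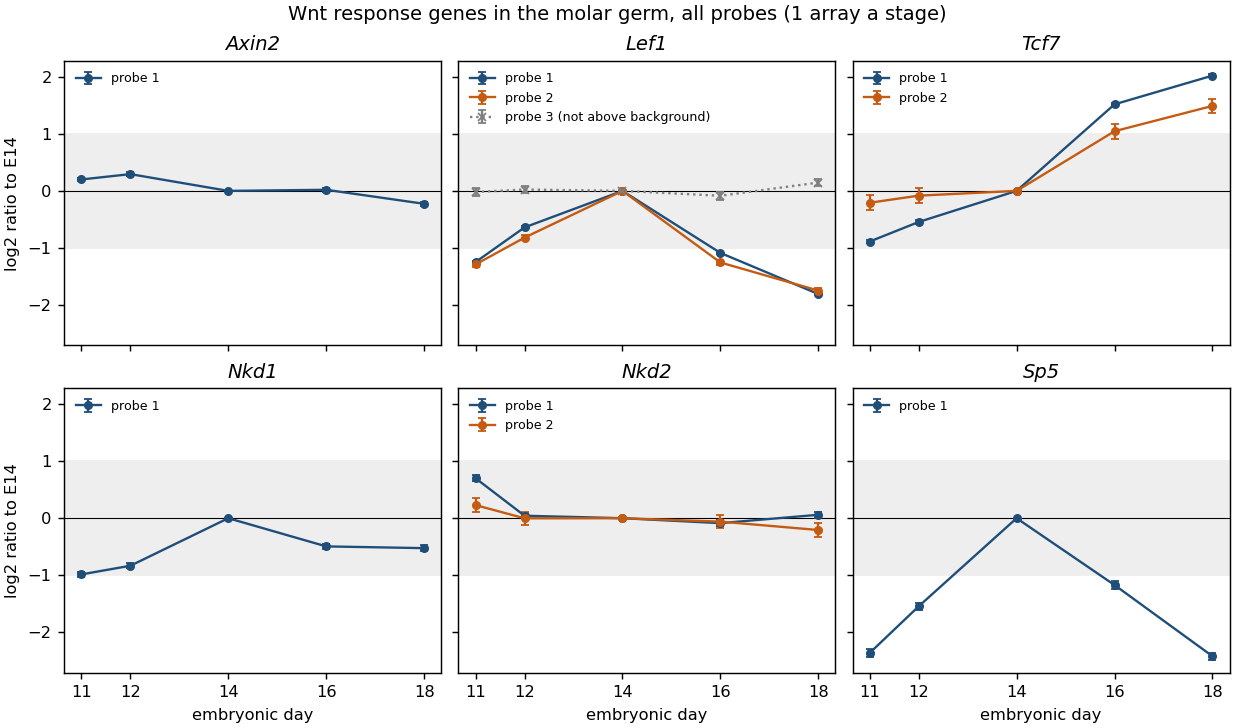
Log2 ratio to E14 (y axis) against embryonic day (x axis) for every probe of the 6 genes, with E14 set to 0, 1 array a stage, error bars of 1 SD over the 4 E14 readings of the probe, and grey for less than 2-fold. Lef1 and Sp5 form a peak at E14 (with median centring Lef1 at E12 reads above E14), Tcf7 climbs from -0.89 to 2.02 on its brighter probe, and Axin2 stays between -0.23 and 0.29. E14 is the only stage in Cy3, so a dye effect of the probe cannot be told apart from a peak there.

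Tcf7, which encodes TCF-1, the other member of the family among these genes and best known from T cells, took the opposite course after E14. Its brighter probe (NM_009331, mm7 chr11:52209369-52209428, minus strand) read -0.89 at E11 and -0.55 at E12, then 1.52 at E16 and 2.02 at E18, with an E14 SD of 0.03. The level was 1.85-fold and 1.46-fold lower than E14 at E11 and E12 (at E12 0.11 above it with median centring), and 2.86-fold and 4.06-fold higher at E16 and E18. Each step from E11 up to E18 exceeded the technical limit, and E18 stood 7.51-fold above E11, or 4.94-fold with the mean of both probes and 13.1-fold by the scanner's own ratios. At E16 99.5% and at E18 99.6% of measured genes were lower than Tcf7.

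The dimmer Tcf7 probe (mm7 chr11:52210086-52210145, minus strand) read -0.21, -0.08, 1.05 and 1.49, with an E14 SD of 0.13. Both probes were above E14 at E16 and E18, while the early deficit shrank to within 0.21 log2 units of E14 on the dimmer probe. On it E18 stood 3.24-fold above E11. The gap between the probes was 0.46 to 0.68 log2 units at each stage. Signals of the dimmer probe in Cy3 were 52.6 to 61.6 scanner units, closer to its background of 16 to 18 than the 128 to 137 of the brighter probe.

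Lef1 and Tcf7 therefore parted after E14: between E14 and E18 the level of Lef1 changed by -1.81 and that of Tcf7 by 2.02 on the log2 scale. Between E11 and E12, both read on slide 1, they moved the same way on their brighter probes, Lef1 by 0.61 and Tcf7 by 0.34. The dimmer Tcf7 probe read -0.21 and -0.08 there, with an E14 SD of 0.13. Between E16 and E18, both read on slide 2, Lef1 moved by -0.72 and Tcf7 by 0.50. These steps compare Cy5 with Cy5 on 1 slide, so neither dye nor slide differs between the stages compared. The remaining family members stayed within 2-fold of E14 and did not pass limma's slope test: Tcf7l1, which mostly represses, read -0.49, -0.06, -0.50 and -0.68 in stage order, and Tcf7l2 read 0.36, 0.48, 0.23 and 0.01.

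Nkd1 (Naked cuticle 1, an inhibitor that binds Dishevelled) had its highest level at E14, though not with median centring, where E12 read 0.33 and E16 0.45 above it. With that centring Nkd1 read -0.02 at E11 and -0.01 at E18. Its probe (NM_027280, mm7 chr8:87184514-87184573, plus strand) read -0.99 at E11 and -0.83 at E12, then -0.49 at E16 and -0.53 at E18, with an E14 SD of 0.05. It was 1.98-fold and 1.78-fold lower than E14 at the early stages and 1.41-fold and 1.44-fold lower at the late ones. E16 and E18 did not differ beyond the technical limit (0.03 log2 units), and E12 exceeded E11 by 0.15, just past the limit of 0.14.

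Nkd2, its paralogue, gave a different profile. The brighter probe (NM_028186, mm7 chr13:70753431-70753490, minus strand) read 0.70 at E11 and 0.04 at E12, then -0.09 at E16 and 0.06 at E18, with an E14 SD of 0.05. Nkd2 was 1.63-fold higher than E14 at E11, and the levels of E12, E14, E16 and E18 followed each other without a neighbour past the technical limit. A dimmer probe (mm7 chr13:70753314-70753373) read 0.23, -0.0015, -0.06 and -0.21, with an E14 SD of 0.12, so E11 was again on top but only by 0.23, and the probes lay on opposite sides of E14 at E18. Between E11 and E12, Nkd2 moved by -0.66 on its brighter probe and Nkd1 by 0.15.

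Axin2, a scaffold of the destruction complex whose own gene is a standard readout of canonical Wnt signalling, stayed within 2-fold of E14 at each stage. Its single probe (NM_015732, mm7 chr11:109059707-109059766, plus strand) read 0.20 at E11 and 0.29 at E12, then 0.02 at E16 and -0.23 at E18, with an E14 SD of 0.03. E12 and E11 did not differ beyond the technical limit, nor did E16 and E14, and E18 lay below E14 by more than the limit. The whole span, from E12 down to E18, was 1.43-fold, or 0.52 log2 units. It was 0.70 with offset 10, 0.95 with the scanner's own ratios and 1.003 with median centring. Over the same 4 stages Nkd1 spanned 0.49, and 0.46 with the scanner's own ratios. Axin2 was dim: its Cy3 signal was 88.5 to 103 scanner units over a background of 15 to 18, and a correction that adds an offset before taking the log pulls ratios of dim probes towards 0.

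**Figure D2:**
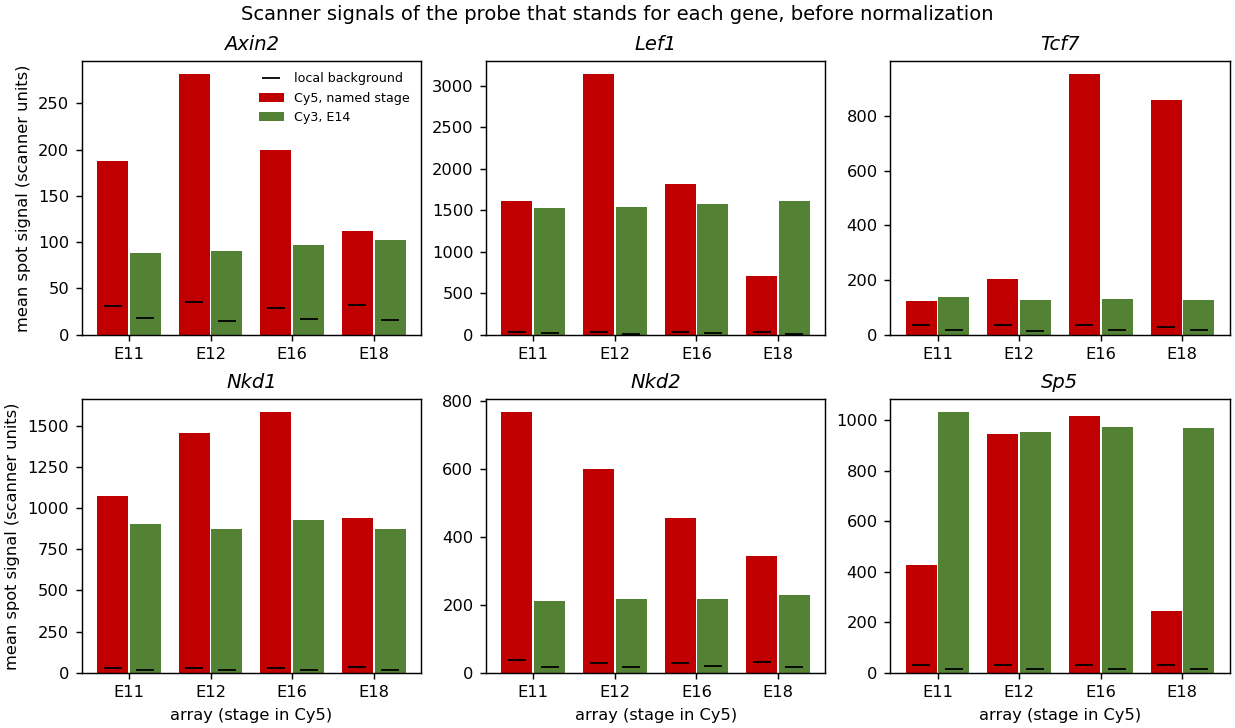
Mean spot signal in scanner units (y axis, linear from 0) in Cy5 and Cy3 on each array (x axis) before normalization, for the probe that stands for each gene, with black lines for the local background. The E14 bars repeat closely across arrays, as for Lef1 at 1529 to 1607, while the stage bars move, as for Tcf7 from 122 at E11 to 952 at E16.

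The scanner signals show what the ratios rest on. For Sp5 the Cy5 signal was 426 at E11 and 944 at E12, then 1016 at E16 and 245 at E18, beside 955 to 1032 for E14 in Cy3. For Lef1 it was 1610, 3138, 1816 and 707, beside 1529 to 1607 in Cy3. For Tcf7 it was 122, 203, 952 and 859, beside 128 to 137 in Cy3. The median signal over probes was 51.5 to 71.7 in Cy5 and 39.8 to 44.0 in Cy3, and the within-array loess fit removed such differences, as a function of brightness, before the ratios were taken. For these bright probes the correction was large. Lef1 at E12 had 3138 in Cy5 beside 1541 in Cy3 and a log2 ratio of -0.64. Sp5 had 944 beside 955 at E12 and 1016 beside 971 at E16, and ratios of -1.55 and -1.17. The size of such deficits thus depends on the fit. All 9 measured probes were well above background in both channels on each of the 4 arrays, so no value of theirs is a bound.

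Counted at 2-fold, 2 of the 6 genes were lower than E14 at E11, Lef1 and Sp5, where 4.86% of all measured genes were lower by as much and 1.6% higher. At E12 only Sp5 of the 6 passed, against 2.63% of all genes lower and 0.327% higher. Lef1 and Sp5 were lower and Tcf7 higher by at least 2-fold at E16, where 1.69% of genes were lower and 2.01% higher. The same 3 genes passed at E18, where 3.84% were lower and 3.82% higher. Axin2, Nkd1 and Nkd2 passed at no stage, though Nkd1 at E11, 1.98-fold lower, lay just under the limit. With offset 10 in the background correction, 4 of the 6 genes passed at E11, Nkd1 at -1.08 and Tcf7 at -1.23 added. As the comparisons share the E14 reference, an unusual E14 level of a gene would enter all 4 of them.

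Steps between the other stages are differences of 2 ratios. A gene's E14 level cancels in them, but the error of the E14 readings on both arrays remains. From E12 to E16, across slides, Tcf7 was 4.18-fold higher, where 4.79% of all genes were at least 2-fold higher and 1.48% lower, and Lef1, Sp5, Nkd1, Nkd2 and Axin2 moved by less than 2-fold. From E16 to E18, within slide 2, Sp5 was 2.38-fold lower, and no other of the 6 moved by 2-fold, where 0.879% of all genes were at least 2-fold lower and 0.488% higher. From E11 to E12, within slide 1, Sp5 was 1.76-fold and Lef1 1.52-fold higher, and Nkd2 1.58-fold lower on its brighter probe. The dimmer Nkd2 probe read 0.23 at E11 and -0.0015 at E12. None of the 6 reached 2-fold, where 0.666% of all genes were as much higher and 0.304% lower. From E11 to E18, across slides, Tcf7 was the only one of the 6 past 2-fold (with median centring Lef1 and Nkd2 passed too, at 2.13-fold and 2.08-fold lower), where 5.93% of all genes were at least 2-fold higher and 2.52% lower.

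A straight line in embryonic day was fitted to the 4 ratios of each gene with limma, the test used here. It has 2 residual degrees of freedom, its error is the scatter of stages about the line and not the spread between pools, and it sees steady rises and falls but not peaks. Tcf7 rose by 0.44 ± 0.03 log2 units a day (SE; limma, adjusted p = 0.00543 over 17415 genes), the 101st highest slope of all, and 6.17% of all genes rose and 2.6% fell by this test. The other 5 genes did not pass: Nkd1 had a slope of 0.07 ± 0.03 (adjusted p = 0.183), Axin2 -0.06 ± 0.03 (0.197), Lef1 -0.10 ± 0.05 (0.276), Nkd2 -0.07 ± 0.04 (0.341) and Sp5 0.0009 ± 0.08 (0.995), all from the same limma fit.

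The slide ran with the stages, since both early stages were hybridised on 1 slide and both late stages on the other. With slide as a block the Tcf7 slope was 0.27 ± 0.15 (limma, adjusted p = 0.99999), and no gene of 17415 passed (0%), while 577 had an unadjusted p under 0.05 against 4799 without the block. Without the E11 array the slope of Tcf7 was 0.44 (limma, adjusted p = 0.0503). Within slide 1 Tcf7 was 0.34 higher at the later stage on its brighter probe, and within slide 2 it was 0.50 higher. The dimmer probe, with an E14 SD of 0.13, read -0.21 and -0.08 on slide 1, and 1.05 and 1.49 on slide 2.

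Markers of both layers of the germ differed between the same stages. The 7 markers of dental and oral epithelium, summed, read -2.60 at E11 and -1.52 at E12, then 0.79 at E16 and 0.24 at E18 on the log2 scale relative to E14, and 4 of the 7 rose by the slope test: Krt5, Cdh1, Epcam and Trp63, with slopes of 0.35 to 0.60. Tcf7 and this sum were both below E14 before it and above E14 after it, while from E16 to E18 the sum was lower and Tcf7 higher. Single members of this list differed: Epcam read 1.31 at E16 and 1.59 at E18, and Trp63 1.09 and 1.26. Krt5, Krt14, Krt8, Krt18 and Cdh1 were lower at E18 than at E16. The 6 markers of keratinizing oral epithelium summed to -1.10, -0.91, 1.40 and 0.34. The 8 markers of dental and jaw mesenchyme, summed, read -1.29, -0.91, -0.71 and -1.76, below E14 at each stage as Lef1 and Sp5 were. The sum is weighted to bright genes such as Col1a1, at -3.51 at E11, while the median of the 8 read -0.34, -0.03, -0.43 and -1.63, and Twist1 (0.81 and 0.46), Pdgfra (0.38 and 0.45) and Pax9 (0.11 and 0.03) were above E14 at E11 and E12. By the slope test 5 of the 8 fell: Prrx1, Msx1, Pax9, Twist1 and Pdgfra. In pooled whole germs, fewer cells of a kind and less RNA per cell cannot be told apart, and the part of tissue makeup in these results was not tested.

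Lef1 and Tcf7 are also T cell genes, so leukocyte markers were read beside them. Cd3e, Lck, Ptprc and Cd52 were measured, 4 of the 7 listed, and their sum read -0.13, -0.18, -0.23 and -0.39 in stage order. Cd3e, a defining T cell gene, stayed within 0.13 log2 units of E14 at every stage. It was well above background on only 3 arrays in each channel and missed the Cy5 flag at E18, so its ratios near 0 give little information. Ptprc read 0.12, -0.13, 0.08 and 0.28 in stage order, and Cd52 -0.73, -1.01, -0.35 and -0.52. The part of leukocytes in the levels of Lef1 and Tcf7 was not tested. Cd3g, Cd3d and Cd247 did not reach the detection rule, and Lck fell by the slope test, from 0.32 at E11 to -0.64 at E18. Endothelial markers, another place where Lef1 is expressed, summed to -0.14, -0.40, -0.60 and -0.55. Erythroid markers summed to 0.76, -0.13, -1.39 and -1.21, those of cartilage and bone to between -0.02 and 0.59, of skeletal muscle to between -0.28 and -0.07, and of neurons and glia to between -0.29 and 0.44.

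Other known response and feedback genes of the pathway did not share 1 profile. Of 19 measured of 20 listed, 8 rose by the slope test and none fell (limma, adjusted over all genes), beside 6.17% of all genes that rose and 2.6% that fell, and with slide as a block none of the 8 passed. The 8 were Notum, a secreted enzyme that inactivates Wnt ligands, Znrf3, which removes Frizzled from the cell surface, the secreted inhibitors Dkk1, Wif1 and Sostdc1, the receptor Tnfrsf19, the growth regulator Myc and the surface protein Cd44. The median ratio of the 19 was -0.99 at E11 and -0.51 at E12, then 0.36 at E16 and 0.21 at E18, where the median of all genes lay within 0.015 of 0 at each stage. Dkk1 read -1.72, -1.67, 0.66 and 1.47, and Wif1 -3.13, -2.35, 1.69 and 1.998, both with the sign of Tcf7 on either side of E14. Notum read -0.19, -0.50, 0.80 and 1.01.

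Lgr5, a receptor for R-spondins that is itself a response gene, was on the side of Lef1 and Sp5, with -0.99, -0.50, -1.06 and -2.74. Fgf20, a growth factor of the enamel knot, read -0.95, -1.06, -0.95 and -0.90, and Kremen1, a co-receptor for Dkk proteins, -1.09, -0.56, -0.70 and -0.46. The 4 values of Fgf20 lay close together, all below E14 in the other dye. As for Lef1, Sp5 and Nkd1, a lower level of Fgf20 away from E14 and a dye effect cannot be told apart. Among the stages read in Cy5, Lef1 was highest at E12 and Sp5 at E16. Ccnd1, a cell cycle gene, read 0.59, -0.04, 0.36 and 1.48, while Rnf43 and Edar were at least 2-fold lower at E11 alone, at -1.53 and -1.15. Dkk4, well above background in Cy5 on 1 array, and Ascl2 stayed within 0.14 of E14. The remaining genes of the list, Apcdd1, Bmp4 and Dact1, were less than 2-fold from E14 at each stage.

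**Figure D3:**
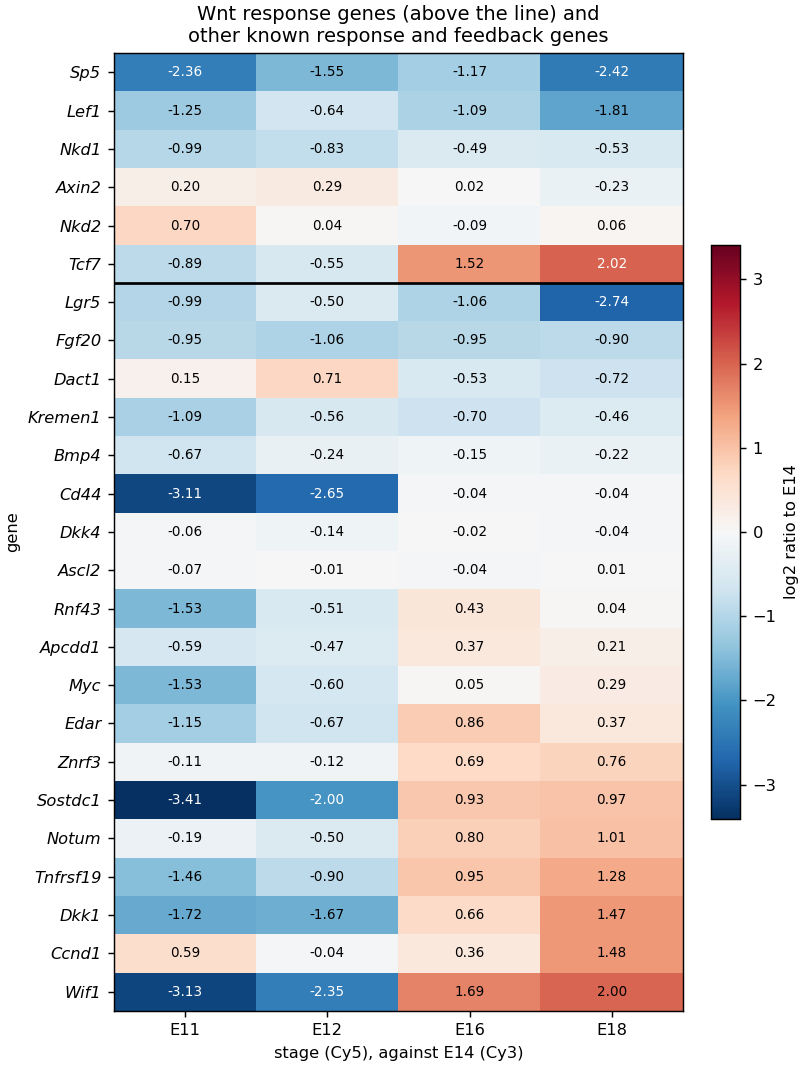
Log2 ratio to E14 (colour and printed value) of the 6 genes, above the line, and of 19 other response and feedback genes, below it, at each stage (x axis), 1 array a stage. Red is higher and blue lower than E14: Lgr5 is 1 of 6 of the 19 that lie below E14 at all 4 stages, as Lef1, Sp5 and Nkd1 do, and Wif1, Dkk1 and Tnfrsf19 turn from blue to red as Tcf7 does.

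Among the receptors, the destruction complex and relay, and the nuclear partners, few genes passed the slope test. Of all genes 6.17% rose and 2.6% fell. Among 18 measured receptors 2 rose by the slope test (limma), Fzd5 with 0.25 and Fzd6 with 0.27 log2 units a day, and none fell, and Fzd1, with -1.94, -1.59, -0.90 and -1.47, was at least 2-fold below E14 at E11, E12 and E18. The median slope of the receptors was -0.01 against -0.0020 over all genes. Of 18 genes of the destruction complex and relay, only Ctnnb1, which encodes beta-catenin, passed the slope test, at 0.18 ± 0.03 (limma, adjusted p = 0.0184), with 0.38, 0.40, 1.11 and 1.59 in stage order. Axin1, the paralogue that shares the scaffold role of Axin2, read -0.27, -0.16, -0.22 and -0.31. Of 13 nuclear partners none passed (limma), the slopes ran from -0.09 for Tle2 to 0.04 for Cby1, and Tle2, a co-repressor, was the only one past 2-fold, at -1.13 at E18.

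Among 15 measured Wnt ligands of 19 listed, 5 rose by the slope test (limma) and 1 fell, a larger share than the 6.17% and 2.6% of all genes. Wnt3a read -1.35 and -1.14 before E14 and 1.73 at E18, Wnt10a -3.53, -2.96, 0.57 and 0.47, and Wnt6 -0.56, 0.01, 0.47 and 1.06. Wnt7a, whose E14 signal was not well above background on any array, and Wnt10b rose as well. Wnt9b fell by 0.14 log2 units a day, but was well above background on only 2 arrays in each channel. Wnt2 read -1.27, -1.65, -2.01 and -1.93 and did not pass. Counting each of the 84 genes of these lists 1 time, with the 6 left out, 16 rose and 1 fell, beside 6.17% and 2.6% of all genes, and 25 were at least 2-fold from E14 at some stage, beside 12.7% of all genes. With slide as a block none of them passed (limma).

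The 3 measured genes closest to each profile, by Euclidean distance of the 4 log2 ratios among 13637 genes well above background throughout, were taken as the nearest patterns. Those of Sp5 lay farthest away: Fgf18, a fibroblast growth factor, lay 0.60 away, with -2.21, -1.38, -1.48 and -2.88, followed by the collagen genes Col6a2 and Col5a1. Nearest to Lef1 was Arhgef25 at 0.19, with -1.30, -0.64, -0.94 and -1.69, then Tmcc1 and an unnamed transcript. Lypd6b, at 0.29, was nearest to Tcf7, with -0.99, -0.76, 1.36 and 1.98, then Lurap1l and Vwa2. Axin2 had C130057N11Rik at 0.04, then Zfp512 and Mcm3ap. Nkd1 had the chaperone gene Calr at 0.08, then Shmt2 and Crtap, and Nkd2 had Nif3l1 at 0.08, then Esf1 and Etv1. Only 4 points enter each distance, and all genes share the E14 reference.

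Median centring of each array in place of loess moved the all-gene median up by 0.40, 0.64, 0.57 and 0.17 in stage order, and under it the ratio of Lef1 at E12 turned to 0.62, of Nkd1 to 0.33 at E12 and 0.45 at E16, and of Tcf7 at E12 to 0.11. At E12 it also put Axin2 at 0.95 and Nkd2 at 0.98. It left Lef1 at -0.18 at E11 and -0.11 at E16, and Nkd1 at -0.02 at E11 and -0.01 at E18. Relative to that shifted median Lef1 at E12 was -0.02 and Nkd1 -0.31 and -0.12. Lef1 at E11 and E16 was -0.58 and -0.68 relative to it, and Nkd1 at E11 and E18 -0.42 and -0.18. Sp5 stayed below E14 at every stage under all 6 alternatives, by 0.25 log2 units or more, and relative to the median by 0.82 or more. Tcf7 stayed above E14 at E16 (1.28 to 2.31) and E18 (1.76 to 2.46), and Lef1 stayed below E14 at E18 (-1.93 to -1.27). Over all genes, median centring also turned the share of higher calls among genes at least 2-fold from E14 from 24.8%, 11.1%, 54.3% and 49.9% in stage order to 93.7%, 97.8%, 99.0% and 87.5%, and the scanner's own ratios gave 40.1% at E11 and 38.1% at E12.

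**Figure D4:**
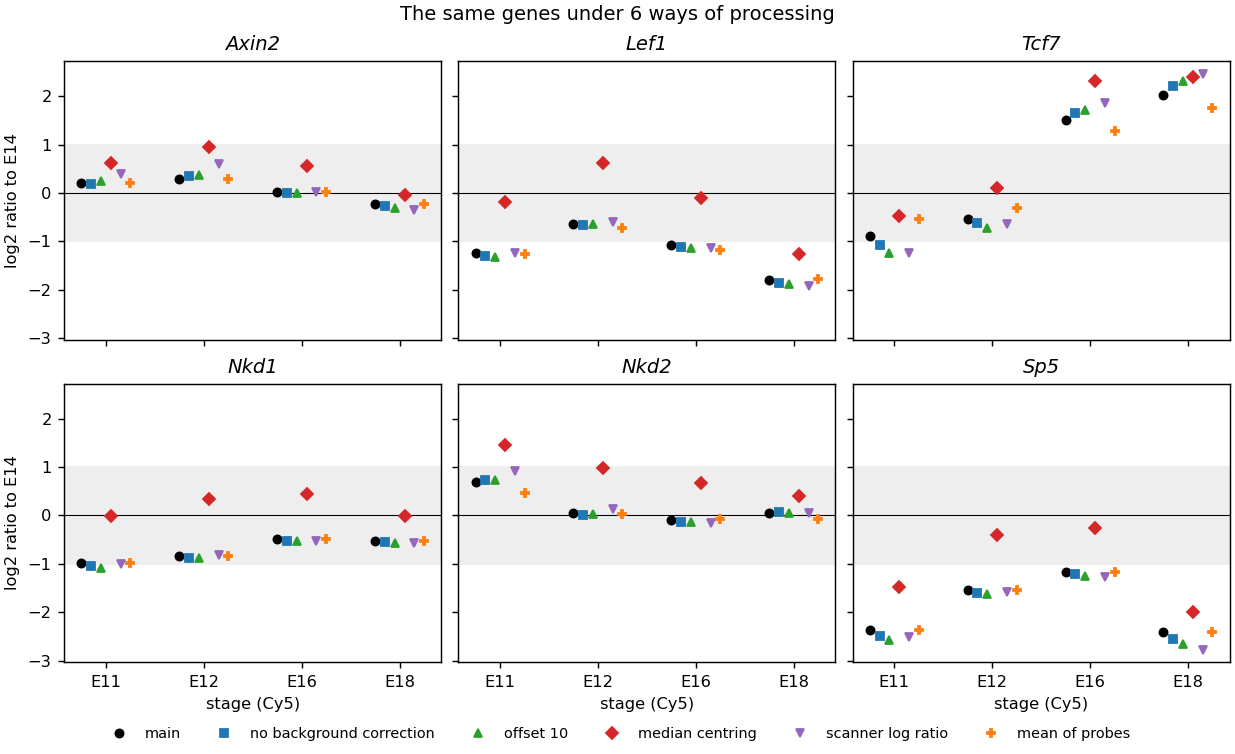
Log2 ratio to E14 (y axis) of each gene at each stage (x axis) under the main processing and 5 others (the deposited table, equal to the scanner ratio within rounding, is left out), grey for less than 2-fold. Most points of a stage lie together, and median centring (red) lies above the main value throughout, so that Lef1 at E12 reads 0.62 there against -0.64 in the main processing.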

How the data were processed

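The authors read the arrays with Agilent Feature Extraction 10.5.1.1, per the file headers. Each deposited file gives the spots' intensity on a linear scale, as mean signal and median background of both channels, with flags. Its software ratio, Cy5 over Cy3, is in log10 per the file headers. The deposited series value table equalled it, within 0.5% of the value, in 100% of values, so its scale and direction are known, and its column medians were 0. Genomic positions are those of the files (mm7), and no annotation of that build was used, so exon and UTR are not given.

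Log2 ratios were taken from these deposited intensity columns with limma 3.58.1 in R 4.3.3: normexp background correction (offset 50), within-array loess with control spots at weight 0, flagged outlier spots (92 to 126 an array) left out, spots of a probe averaged. The offset pulls ratios of dim probes towards 0. The brightest probe stood for a gene, and that probe had to be flagged well above background on 1 or more arrays in Cy5, or on 2 or more in Cy3, for the gene to count as measured. E14 levels came from loess plus Aquantile scaling. Array names were updated through a RefSeq gene table (22951 probes by accession, 6659 by symbol, 3109 by synonym, 8455 kept as on the array). Slopes were fitted with lmFit and eBayes with an intensity trend, and p-values were adjusted by Benjamini-Hochberg over 17415 genes, with a threshold of 0.05. The slope fit was also run on simulated data with independent noise and no slide effect, which does not bear on the part of the slide. The precision of a stage is limited by its 1 array.

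The genes and lists were chosen with earlier results of these data known. The rule for further names took the 3 genes nearest to each profile and, in each pathway list, genes at least 2-fold from E14 or past the slope test, or else the ends of the slopes. Genes of a list named otherwise were chosen after their values were seen. Alternatives were the background correction, the offset, median centring, the scanner's ratios, the deposited table, the mean of probes, the filter, a 1.5-fold limit, slide as a block and leaving out each array. A further listed marker is not reported here.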

Additional observations from a re-analysis of the deposited data

How the results depend on the processing

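Each stage had 1 array, so the limit is the missing spread between pools, and dim probes such as those of Axin2 are compressed by the offset. No paired analysis was possible because each stage is 1 pool on 1 array and the labels give no replicate numbers. The count of genes at least 2-fold from E14, which was 1125, 515, 644 and 1333 in the order of stages, moved to 3524, 1736, 2476 and 3829 at 1.5-fold, to 1980, 947, 1232 and 2261 with offset 10, to 4567, 5802, 4312 and 2313 with median centring, to 3856, 2253, 2879 and 4513 with the scanner's ratios and to 3845, 2246, 2874 and 4502 in the deposited table. Of the 6 Wnt response genes, 2 were past 2-fold at E11, but 5 were past 1.5-fold and 4 past 2-fold without background correction, with offset 10 or with the scanner's ratios. At E12 the count of 1 became 3 at 1.5-fold and 0 with median centring, at E16 the count of 3 became 1 with median centring, and at E18 it was 3 under all alternatives tried. Of the other pathway genes, 15, 9, 7 and 15 were past 2-fold in stage order. At 1.5-fold these were 30, 19, 25 and 33, with the scanner's ratios 25, 18, 18 and 28, and the deposited table gave the same 4 counts. With median centring the counts were 24 at E11, 32 at E12 and 31 at E16, with offset 10 E12 gave 14, E16 gave 12 and E18 gave 23, and without background correction E16 gave 11. Where the cause of such a move is not the lower limit itself, the cause was not tested.

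The count of slopes past the threshold was 1528 and became 0 with slide as a block (limma; 577 at an unadjusted p under 0.05), and leaving out 1 array gave 76 to 2371. Without E11 it was 76, without E12 322, without E16 2371 and without E18 2002, and with 3 arrays 1 residual degree of freedom is left. Of the 6 genes 1 passed (Tcf7), and 0 with slide as a block or without E11, so that leaving out 1 array gave 0 to 1. Of the other pathway genes 17 passed, 0 with slide as a block and 2 to 28 leaving out 1 array. The slope of Sp5, 0.0009, had no settled sign: it was -0.0042 with offset 10, -0.066 with median centring, -0.028 with the scanner's ratios, -0.34 with slide as a block, and -0.11 to 0.20 leaving out 1 array. The slope of Tcf7 was between 0.27 and 0.55 in all alternatives.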
